A study of Rattus norvegicus with 19 samples.

Results

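T-box, GATA, SOX and forkhead factors are 4 families of DNA-binding proteins, and the set described here held 49 of the 15168 gene symbols matched to probes on a rat array. Members were taken by symbol: Tbx, Gata or Sox followed by a number, or Fox followed by a letter and a number. Gata3, Foxa1 and Sox10 were left out by that rule. The 49 members comprised 9 T-box, 5 GATA, 10 SOX and 25 forkhead factors, on 61 probes. Other members of these families, among them Tbx2, Sox4, Sox9, Foxc1, Foxf1 and Foxo1, had no probe matched by accession and were not analysed here.

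T-box factors bind DNA through the T-box domain, GATA factors through zinc fingers that read the letters GATA, SOX factors through a high-mobility-group box that bends DNA, and forkhead factors through a winged helix. Many of them set cell identity in the embryo and keep it in the adult, so that a bulk tissue carries those of each of its cell types. In mammary tissue, Tbx3 is needed for the embryonic mammary bud in mouse, Foxm1 drives genes of mitosis, Sox18 marks endothelium, Tbx21 marks T helper and natural killer cells, and Gata1 and Gata2 act in blood-forming and mast cells.

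RNA came from 13 mammary carcinomas, labelled as induced by radiation, and 6 normal mammary glands, with 1 array per sample. All rats were females of the F1 cross between the Sprague-Dawley and Copenhagen strains. The treatment protocol, given alike for every sample, covers rats that were left untreated and rats exposed over the whole body to 4 Gy of caesium gamma rays at 0.5 Gy per minute when 7 weeks old. Whether a normal gland belonged to an irradiated rat is not given, nor is age at sampling. The comparison is thus of carcinoma with gland and not of irradiated with unirradiated tissue. Samples are numbered within each group, and nothing in the labels says which carcinomas, if any, came from the same rat, so the p-values measure the spread between these samples.

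Carcinoma arrays were mostly brighter than normal gland arrays. The 75th percentile of spot intensity was 485 to 1428 on carcinoma arrays and 295.5 to 673 on normal gland arrays, and the dimmest carcinoma array was that of carcinoma 7. The arrays lay on 3 slides, with 4 carcinomas and 3 normal glands on slide 1, 4 and 2 on slide 2, and 5 and 1 on slide 3. Many cell type markers were lower in carcinomas: 10 of 10 of adipocytes, 8 of 9 of blood vessel endothelium, 7 of 11 of T and NK cells and 5 of 8 of Schwann cells. So were 3 of 6 of lymphatic endothelium, 3 of 5 of red blood cell precursors, 3 of 9 of fibroblasts and 1 of 7 of skeletal muscle. Higher in carcinomas were 2 of 11 luminal and 1 of 9 basal epithelial markers. Of regulatory T cell and mast cell markers, 0 of 5 and 0 of 7 passed the test in either direction. Over all genes tested, 13.2% were lower and 9.73% higher in carcinomas. The skeletal muscle and basal epithelial counts were near these shares. In bulk tissue, fewer cells of a type and less RNA per cell cannot be told apart.

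The first question was which of these factors were measurable at all. An array detected a member if the scanner software marked 0.5 or more of a probe's spots as well above background. Well above background on all 19 arrays were 17 members (34.7%), against 56.5% of all matched genes. The factors measured throughout included 12 forkhead factors, Tbx3, Tbx21, Gata2, Sox13 and Sox18. Foxb1, Foxh1, Sox17 and Tbx20 were well above background on no array, which was 8.16% of the members against 3.71% of all genes. Sox17, an endothelial factor of the same subgroup as Sox18, was thus not well above background in either group.

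Between these extremes, detection was more frequent on carcinoma arrays, for the members and for all genes. On 0.5 or more of a group's arrays, 36 members (73.5%) were detected in carcinomas and 27 (55.1%) in normal glands, beside 81.2% of all genes in carcinomas and 70.8% in normal glands. For 23 members (46.9%) the share of arrays was higher in carcinomas, for 5 (10.2%) it was higher in normal glands and for 21 it was equal. Over all genes, the share was higher in carcinomas for 31.8% and in normal glands for 8%. The 5 were Gata4, Gata6, Tbx1, Tbx18 and Foxc2. Foxa2, Foxb2, Gata5, Sox12, Tbx4 and Tbx22 were among the factors well above background in some carcinomas and in none of the normal glands. Per array, 20 to 40 members (median 34) were detected in carcinomas and 24 to 34 (median 26.5) in normal glands. The fewest were found on the dim array of carcinoma 7. Counts did not simply follow brightness among carcinomas. Carcinoma 10, with a 75th percentile of 866, had the most, 40, and the brightest, carcinoma 11 at 1428, had 33. The part of brightness in the difference was not tested.

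**Figure D1:**
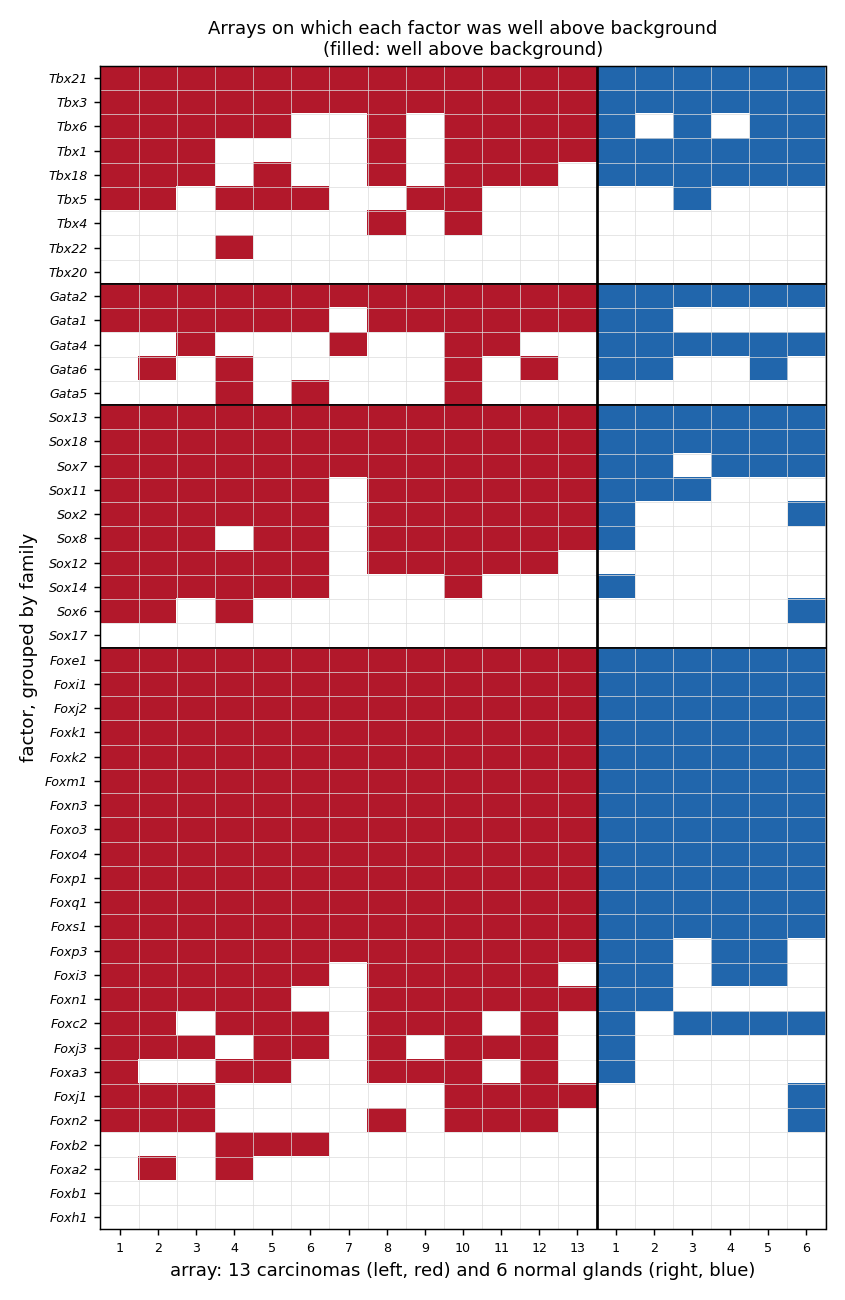
Detection of 48 of the factors on each array. Rows are factors grouped by family, columns are the 13 carcinomas and then the 6 normal glands, and a filled cell marks a factor that was well above background. The 17 factors filled on all 19 arrays are mostly forkhead factors, and carcinoma 7 has the fewest filled cells of all arrays, 20.

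Levels are given as log2 of the background-subtracted intensity after subtraction of the array's own 75th percentile, so a level of 0 equals that percentile and the levels of different probes cannot be ranked against each other. A member was tested when a probe was well above background on at least 6 arrays, which held for 38 members and left 11 untested. With limma, at a Benjamini-Hochberg adjusted p under 0.05 over 12789 genes, 3 members were higher in carcinomas (Tbx3, Foxm1 and Foxp1) and 5 were lower (Gata4, Sox18, Tbx18, Foxc2 and Tbx21). The remaining 30 did not pass. These 8 calls were 21.1% of the tested members, beside 23% of all genes tested, so the share of changed factors was near the background. In each direction the picture was alike, with 7.89% of members and 9.73% of all genes higher, and 13.2% of members and 13.2% of all genes lower. The median change was -0.11 over the tested members and 0.01 over all genes tested. By family, 3 of 6 tested T-box factors, 1 of 4 GATA factors, 1 of 8 SOX factors and 3 of 20 forkhead factors passed.

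**Figure D2:**
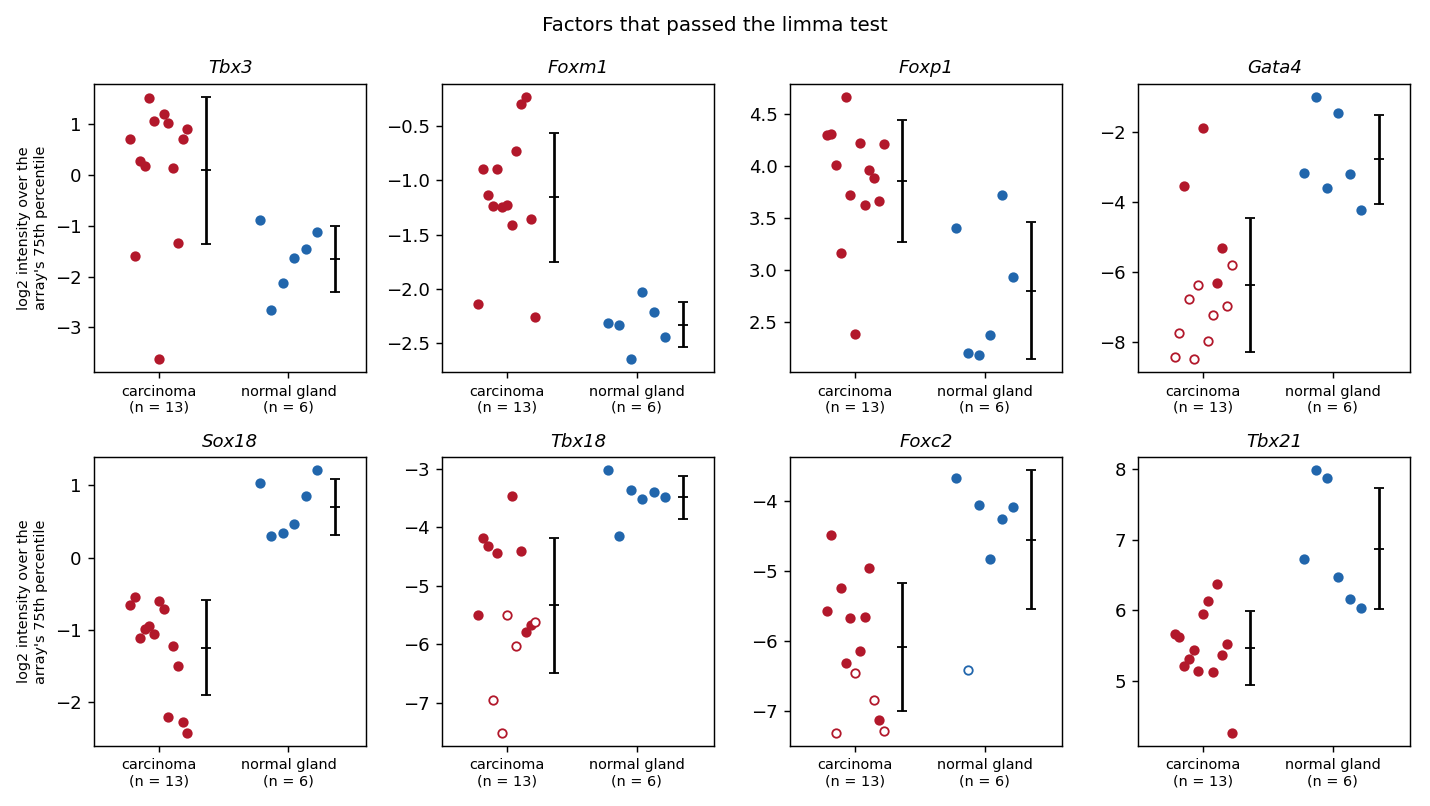
Levels of the 8 factors that passed the test, as log2 intensity over the array's 75th percentile. Each point is 1 array, carcinomas left and normal glands right, with open points for arrays on which the probe was not well above background; bars show the mean and SD. Sox18 is the factor whose groups do not overlap, and several Gata4, Tbx18 and Foxc2 points in carcinomas are open.

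Among the T-box factors, Tbx3 was higher and Tbx21 and Tbx18 were lower in carcinomas. Tbx3, a repressor whose loss in humans causes ulnar-mammary syndrome, ranged over -3.62 to 1.52 (median 0.71) in carcinomas and -2.65 to -0.89 (median -1.54) in normal glands. Of the 13 carcinomas, 10 lay above all 6 normal glands, and carcinoma 7 lay below them. The difference was 1.74 ± 0.58 (SE), a 3.33-fold higher mean, with an adjusted p of 0.035 by limma. Within slides 1, 2 and 3 it was 2.12, 1.20 and 1.44, slide 3 having only 1 normal gland. This call was close to the threshold: with slide as a block the adjusted p by limma was 0.0555, and it was 0.0504 to 0.1 when normal gland 2, 3, 4 or 5 or carcinoma 5, 6 or 9 was left out. Without the 3 carcinoma arrays whose headers mark the extraction for evaluation (carcinomas 4, 6 and 13), it was 0.0924.

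Tbx21 encodes T-bet, which directs interferon gamma production in T helper and natural killer cells. Its levels were 4.26 to 6.37 (median 5.44) in carcinomas and 6.03 to 7.98 (median 6.60) in normal glands. All but 2 carcinomas lay below every normal gland, although the groups overlapped. The mean was lower by a log2 change of -1.41 ± 0.30 (SE, adjusted p = 0.00273, limma), and within slides 1, 2 and 3 it was -2.04, -0.94 and -0.50. Quantile normalization gave a smaller change of -0.75 (adjusted p = 0.0272, limma). Beside it, the T and NK cell markers were lower too, with list scores (the mean of the list's centred genes) of -1.48 to 1.02 in carcinomas and 0.22 to 2.60 in normal glands. The largest falls in that list were in Klrd1, a receptor of natural killer cells (-2.66), and Cd2, an adhesion molecule of T cells (-2.29). The part of cell content in the Tbx21 difference was not tested. Tbx21 was read from 1 probe with 1 spot per array. Its mean in normal glands was 6.88, while means of the 11 tested T and NK cell markers there were -4.16 (Klrd1) to 0.18 (Cd3d). Levels of different probes cannot be ranked, and whether this probe reads Tbx21 alone was not tested. Of 7 tested genes that work with T-bet or respond to it, 2 were lower in carcinomas and 0 higher, beside 13.2% and 9.73% of all genes. The chemokine Ccl5 changed by -2.33 and the interleukin receptor chain Il12rb2 by -1.25.

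Tbx18, known from the mesenchyme of the heart's outer layer and of the ureter in mouse, was well above background in 8 of 13 carcinomas and 6 of 6 normal glands. Carcinomas read -7.51 to -3.47 (median -5.50) and normal glands -4.15 to -3.03 (median -3.44). In 12 of 13 carcinomas the level was under that of every normal gland. The change was -1.85 ± 0.46 (SE, adjusted p = 0.0079, limma), or -1.10, -3.04 and -1.50 within the slides, and -1.20 with normexp background correction. A second Tbx18 probe was well above background on 1 normal gland array alone and was not tested.

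A signal near background sits lower on this scale when the array is brighter. The 4 factors detected on no array had means 0.92 to 1.29 lower in carcinomas than in normal glands. Tbx18, Gata4 and Foxc2, each undetected on some carcinoma arrays, changed by -1.85, -3.59 and -1.53, and the part of this shift in their changes was not tested.

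Of the other T-box factors, Tbx1, which patterns the pharyngeal arches, did not pass. Its levels were -7.23 to 2.23 (median -5.24) in carcinomas and -2.85 to -0.71 (median -2.14) in normal glands. Carcinoma 2 stood above all normal glands at 2.23, carcinoma 13 lay among them at -1.31, and the other 11 lay below. The difference was -2.53 ± 1.02 (SE, adjusted p = 0.077, limma), and without carcinoma 2 it was -3.09 (adjusted p = 0.00431). Tbx5 and Tbx6, factors of heart and forelimb and of the mesoderm that forms the somites, differed by -0.14 and 0.22 and did not pass. Tbx4, Tbx20 and Tbx22 were not tested.

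Promoter sequences were available in RefSeq (assembly GRCr8) for 31 of the 49 members and for 3 of the 8 that passed: Tbx18, Tbx21 and Foxp1. The windows of the pair of T-box factors that were lower together are shown for their sequence, from 250 bases before to 50 after the annotated start, 5' to 3' on the gene's strand, with motif matches in capitals.
Tbx18, chr8:97559916-97560215, minus strand: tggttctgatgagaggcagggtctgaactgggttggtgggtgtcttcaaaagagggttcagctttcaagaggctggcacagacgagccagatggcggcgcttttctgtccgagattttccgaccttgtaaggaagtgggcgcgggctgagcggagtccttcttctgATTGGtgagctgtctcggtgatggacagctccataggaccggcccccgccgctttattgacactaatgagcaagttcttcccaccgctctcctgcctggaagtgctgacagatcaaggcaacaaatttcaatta
Tbx21, chr10:82595204-82595503, minus strand: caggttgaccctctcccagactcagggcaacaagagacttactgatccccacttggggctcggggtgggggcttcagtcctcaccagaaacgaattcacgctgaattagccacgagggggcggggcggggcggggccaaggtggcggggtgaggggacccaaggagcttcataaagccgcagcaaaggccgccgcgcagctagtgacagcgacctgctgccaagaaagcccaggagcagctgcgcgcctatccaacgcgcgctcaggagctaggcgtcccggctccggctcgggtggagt
Short cores were searched on both strands: AGATAA for GATA factors, TGTTTAC for forkhead factors, ACAAAG and ACAATG for SOX factors, GGTGTGA for T-box factors and CCAAT for the CCAAT box. None of these letter strings overlap in the windows shown. The Tbx18 window holds the reverse complement of CCAAT, as do CCAAT matches in 37.5% of all promoters of this length. The Tbx21 window, rich in G and C, holds none of the 6 strings.

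Gata4 was lower in carcinomas. This zinc-finger factor of heart, gut endoderm and gonad was well above background in 4 of 13 carcinomas and in 6 of 6 normal glands. Carcinoma levels were -8.47 to -1.86 (median -6.75) and normal gland levels -4.21 to -0.98 (median -3.18). Only carcinomas 7 and 3, at -1.86 and -3.53, reached the range of the normal glands. The change was -3.59 ± 0.80 (SE, adjusted p = 0.00353, limma), and within the slides it was -4.46, -3.22 and -2.25. With normexp background correction it was -1.80 (adjusted p = 0.000412). Carcinoma 7, with the highest Gata4 of the carcinomas, had the dimmest carcinoma array. Its adipocyte score, -0.39, was the highest of the carcinomas, against 2.55 to 3.91 in normal glands. Carcinoma 3, second in Gata4, scored -1.21. Carcinoma 12, second in adipocyte score at -0.93, read -6.97 for Gata4. The part of adipocyte content in the Gata4 difference was not tested.

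Gata6, a partner of Gata4 in endoderm and heart, was divided among carcinomas. Levels were -8.74 to -2.69 (median -7.00) in carcinomas and -5.69 to -4.47 (median -4.64) in normal glands. Below all normal glands were 9 carcinomas, of which carcinoma 12 alone was detected, and above them were carcinomas 4 and 2. The part of the shift of near-background signals in these levels was not tested. The difference of -1.51 ± 0.71 (SE) did not pass (adjusted p = 0.128, limma). Gata1, the master factor of red cells and platelets, and Gata2 differed by 0.37 and -0.09 and did not pass (adjusted p = 0.544 and 0.912, limma). Gata2 spread more widely in carcinomas, at -4.98 to -1.46 (median -3.91), than in normal glands, at -4.00 to -3.06 (median -3.54). Gata1 read -6.08 to -3.62 (median -4.68) in carcinomas and -6.74 to -3.93 (median -5.11) in normal glands, and was detected on 12 of 13 carcinoma arrays and 2 of 6 normal gland arrays. Gata5 was seen on 3 carcinoma arrays and was not tested. Among 8 cofactors of GATA proteins, 2 were lower in carcinomas and 1 higher, beside 13.2% and 9.73% of all genes. Lyl1 (-1.52) and Lmo2 (-1.16), members of the haematopoietic complexes that hold GATA factors, were lower, and the core-binding factor Runx1 (1.15) was higher.

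Sox18 separated the groups completely. Every one of the 13 carcinomas, at -2.42 to -0.55 (median -1.05), lay below all 6 normal glands, at 0.30 to 1.21 (median 0.65). It was the 1 tested member whose groups did not overlap, beside 2.47% of all genes tested. The change was -1.95 ± 0.28 (SE), a 3.86-fold lower mean, with an adjusted p of 8.39e-05 by limma. Within slides 1, 2 and 3 the difference was -1.37, -1.87 and -2.84. Markers of blood vessel endothelium moved with it: 8 of 9 were lower, led by the tight junction gene Cldn5 (-3.24) and the adhesion gene Pecam1 (-2.33), and list scores were -1.43 to 0.08 in carcinomas and 0.31 to 2.10 in normal glands. The part of vessel content in the Sox18 difference was not tested. In the lymphatic list, Ccl21 (-6.19), Lyve1 (-3.02) and Pdpn (-1.32) were lower, while Flt4 (-0.05), Prox1 (0.01) and Reln (2.12, adjusted p = 0.0528, limma) did not pass.

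The remaining SOX factors did not pass. Sox7, an endothelial relative of Sox18, read -5.60 to -2.82 (median -3.99) in carcinomas and -4.66 to -2.81 (median -3.45) in normal glands (difference -0.49 ± 0.40 SE, adjusted p = 0.401, limma), and its second probe differed in the other direction, by 0.52. Sox2, a factor of pluripotent and progenitor cells, read -6.82 to -2.69 (median -4.93) in carcinomas and -7.02 to -3.73 (median -6.13) in normal glands. The difference was 0.51 ± 0.57 (SE, adjusted p = 0.56, limma), and a second Sox2 probe differed by -0.12. Sox11, a factor of neural progenitors, read -5.24 to -4.30 (median -4.59) in carcinomas and -7.03 to -3.96 (median -4.55) in normal glands, a difference of 0.28 ± 0.34 (SE, adjusted p = 0.59, limma). The groups of both factors overlapped widely. Sox8, a relative of Sox9 active in neural crest and testis, read -6.48 to -1.24 (median -4.47) in carcinomas and -6.43 to -4.85 (median -5.67) in normal glands. It was above every normal gland in 9 carcinomas, but was well above background on 1 of 6 normal gland arrays, against 11 of 13 carcinoma arrays. The difference of 1.61 ± 0.62 (SE) narrowly missed the threshold (adjusted p = 0.0672, limma). Within slides 1, 2 and 3 it was 2.50, -0.12 and 2.46. Sox12 was well above background in 11 of 13 carcinomas and 0 of 6 normal glands, and its levels overlapped, at -6.00 to -4.55 (median -5.00) in carcinomas and -6.57 to -5.09 (median -5.50) in normal glands. The difference of 0.52 ± 0.26 (SE) did not pass (adjusted p = 0.158, limma), and with normexp correction it was -0.63 (adjusted p = 0.00542, limma), so no direction is given. Sox13 and Sox14 differed by 0.28 and -0.58, and Sox6 and Sox17 were not tested.

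Forkhead factors were the largest family, and 17 of 20 tested members did not pass. Foxm1, which switches on genes of mitosis and is made in dividing cells, was higher in carcinomas. Levels were -2.26 to -0.23 (median -1.22) in carcinomas and -2.65 to -2.03 (median -2.32) in normal glands. Above all normal glands were 11 carcinomas, and carcinomas 1 and 13 lay inside their range. The difference was 1.17 ± 0.25 (SE), a 2.26-fold higher mean (adjusted p = 0.00282, limma), and it was 1.17, 1.01 and 1.34 within the slides. A second probe showed 1.54 (adjusted p = 0.0236 over probes, limma), and normexp correction gave 0.67 (adjusted p = 0.0138). Of 12 tested genes of mitosis that Foxm1 is known to bind or to accompany, 6 were higher in carcinomas and 0 lower, led by the centromere protein gene Cenpf (2.04) and the kinase gene Plk1 (1.79).

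Foxp1, a repressor known from B cells, lung and heart, was higher in carcinomas at 2.39 to 4.67 (median 3.96), against 2.18 to 3.72 (median 2.65) in normal glands. Above all normal glands were 9 carcinomas, and the lowest was carcinoma 7. The difference was 1.06 ± 0.29 (SE, adjusted p = 0.0121, limma). On slides 1 and 3 it was 1.73 and 1.06, and on slide 2 it was 0.18. Foxp1 moved with array brightness among the 13 carcinomas (Pearson r = 0.79, permutation p adjusted over 8 factors 0.0298; Spearman rho = 0.56, adjusted p = 0.364, permutation), and r was 0.528 without the 2 arrays farthest in brightness. With brightness as a covariate the difference was -0.23, and the part of brightness in it was not tested.

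The Foxp1 promoter window is shown because it was the 1 window among the members that held the forkhead core searched.
Foxp1, chr4:133353231-133353530, minus strand: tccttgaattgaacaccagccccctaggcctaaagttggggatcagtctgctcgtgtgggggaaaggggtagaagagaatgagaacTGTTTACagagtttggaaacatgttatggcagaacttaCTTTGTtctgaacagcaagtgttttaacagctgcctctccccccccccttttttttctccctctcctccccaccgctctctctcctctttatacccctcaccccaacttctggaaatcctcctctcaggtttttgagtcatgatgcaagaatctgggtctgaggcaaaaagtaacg
TGTTTAC was found in 3.78% of all promoters of this length, and ACAAAG, here as its reverse complement, in 18.8%. Over the 31 member promoters, AGATAA was in 0, TGTTTAC in 1, ACAAAG in 5, ACAATG in 3, GGTGTGA in 1 and CCAAT in 15; across all promoters AGATAA was in 11.6%, ACAATG in 13.2% and GGTGTGA in 3.83%.

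Foxc2, which shapes lymphatic valves and mesenchyme, was lower in carcinomas at -7.31 to -4.48 (median -6.15), against -6.42 to -3.67 (median -4.17) in normal glands. Detection held on 9 of 13 carcinoma arrays and 5 of 6 normal gland arrays, and normal gland 2, at -6.42, was the array in that group on which it was not. The change was -1.53 ± 0.45 (SE, adjusted p = 0.019, limma), and -1.20, -1.21 and -2.39 within the slides. Without normal gland 3 the adjusted p was 0.056 by limma, and among samples with number codes alone it was 0.0842.

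The forkhead box O factors, which insulin signalling keeps out of the nucleus, did not pass. Foxo3 read -3.42 to -1.82 (median -2.62) in carcinomas and -3.76 to -2.29 (median -2.69) in normal glands (adjusted p = 0.502, limma), and Foxo4 differed by 0.49 ± 0.18 (SE, adjusted p = 0.0563, limma). Of 13 regulators and targets of these factors, 2 were lower in carcinomas and 1 higher, near the shares over all genes (13.2% and 9.73%). The gluconeogenic enzyme gene Pck1 (-7.48) and the endothelial factor gene Klf2 (-2.34) were lower, and the kinase subunit gene Pik3ca (0.84) was higher. Pck1 is also strongly expressed in adipocytes, whose markers were lower here, and the part of adipocyte content in its change was not tested. Foxk1 and Foxk2, which repress autophagy and promote glycolysis, differed by 0.59 and 0.54 (adjusted p = 0.0762 and 0.0536, limma). A second Foxk1 probe differed by 1.03 (adjusted p = 0.00606 over probes, limma).

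Foxp3, the factor of regulatory T cells, was well above background in all 13 carcinomas and 4 of 6 normal glands, at -5.31 to -1.32 (median -4.14) in carcinomas and -4.89 to -2.57 (median -4.41) in normal glands. Carcinomas 6 and 7, both on slide 2, stood above the rest at -1.32 and -1.73. The mean difference was 0.11 ± 0.54 (SE, adjusted p = 0.909, limma). Foxq1, a factor of hair and gut epithelium, read -4.47 to 0.79 (median -2.12) in carcinomas and -2.08 to -0.65 (median -1.23) in normal glands (adjusted p = 0.489, limma). Foxe1, known from the thyroid, differed by -1.39 ± 0.55 (adjusted p = 0.0722, limma). The other tested forkhead factors, Foxa3, Foxi1, Foxi3, Foxj1, Foxj2, Foxj3, Foxn1, Foxn2, Foxn3 and Foxs1, differed by -0.83 to 0.34. Foxa2, Foxb1, Foxb2 and Foxh1 were among those not tested.

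**Figure D3:**
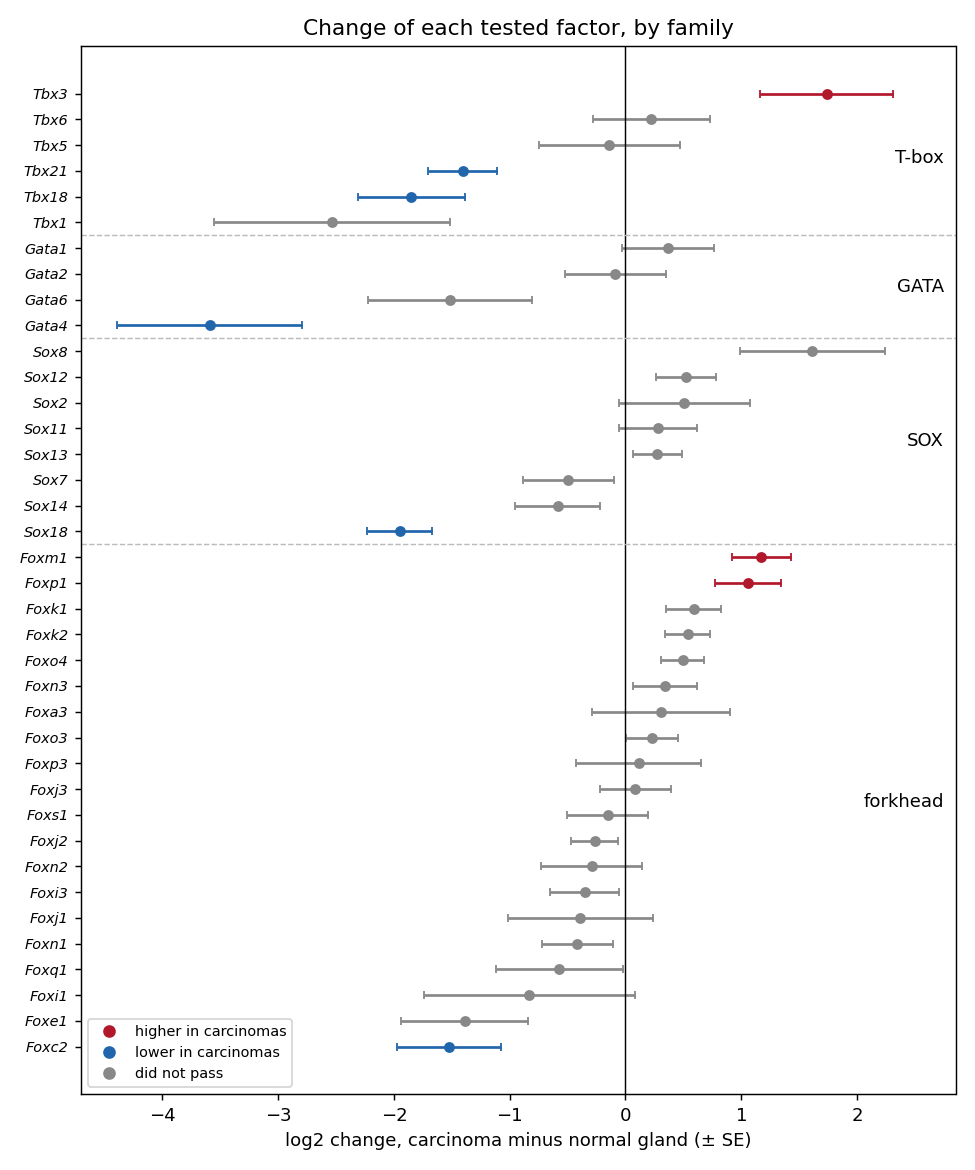
Change of the 38 tested factors, carcinoma minus normal gland in log2 with its SE, grouped by family. Red marks factors higher in carcinomas, blue lower and grey those that did not pass; the changes run from -3.59 for Gata4 to 1.74 for Tbx3.

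Factors of named cell types were then set against the mean centred level of that type's other markers within the 13 carcinomas, for 6 pairs, with permutation p-values adjusted over the pairs. Foxm1 followed its mitosis list (Pearson r = 0.875, adjusted permutation p = 0.00048; Spearman rho = 0.835, adjusted p = 0.00177, permutation), and r was 0.731 without the 2 carcinomas farthest from the median score. Sox18 followed the endothelial list (r = 0.846, adjusted permutation p = 0.00186; rho = 0.934, adjusted p = 0.00024, permutation), with r = 0.66 without 2 carcinomas. The carcinomas with more mitosis signal thus had more Foxm1, and those with more endothelial signal more Sox18. Gata2 followed the mast cell list (r = 0.666, adjusted permutation p = 0.0232; rho = 0.681, adjusted p = 0.0268, permutation), with r = 0.751 without 2.

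Tbx21 followed the T and NK cell list more loosely (r = 0.665, adjusted permutation p = 0.0232, and rho = 0.643, adjusted p = 0.0321, permutation). Without 2 carcinomas r was lower, at 0.372. Leaving out the farthest scores also narrows their range, so a lower r cannot show that single carcinomas carry a relation. Tbx3 and the luminal list gave r = 0.648 (adjusted permutation p = 0.0369) but rho = 0.451 (adjusted p = 0.149, permutation). Without 2 carcinomas r was 0.371, so this relation was weaker by rank and without them. Foxp3 and the regulatory T cell list gave r = 0.138 (adjusted permutation p = 0.651; rho = 0.132, adjusted p = 0.666, permutation), and -0.203 without 2. With normexp correction r was 0.527 for this pair. Foxp3 was lower on brighter carcinoma arrays (r = -0.734, permutation p adjusted over 2 factors 0.0086; rho = -0.599, adjusted p = 0.0675, permutation), with r = -0.705 without 2 arrays, while Gata2 gave r = 0.0967 (adjusted p = 0.757; rho = 0.275, adjusted p = 0.365, permutation). Foxp3 also differed by slide. On slide 2, carcinomas 4, 6, 7 and 9 read -3.87, -1.32, -1.73 and -3.23, and the carcinomas of the other slides -5.31 to -3.08. Normal glands 4 and 5, also on slide 2, read -2.57 and -2.76, and the other normal glands -4.89 to -4.32. The parts of brightness and of slide in the Foxp3 relation were not tested. Within the 10 number-coded carcinomas, r was 0.876 for Foxm1, 0.931 for Sox18, 0.723 for Gata2, 0.559 for Tbx21, 0.625 for Tbx3 and 0.177 for Foxp3. A slide held 4 or 5 carcinomas, too few for a value within slides.

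**Figure D4:**
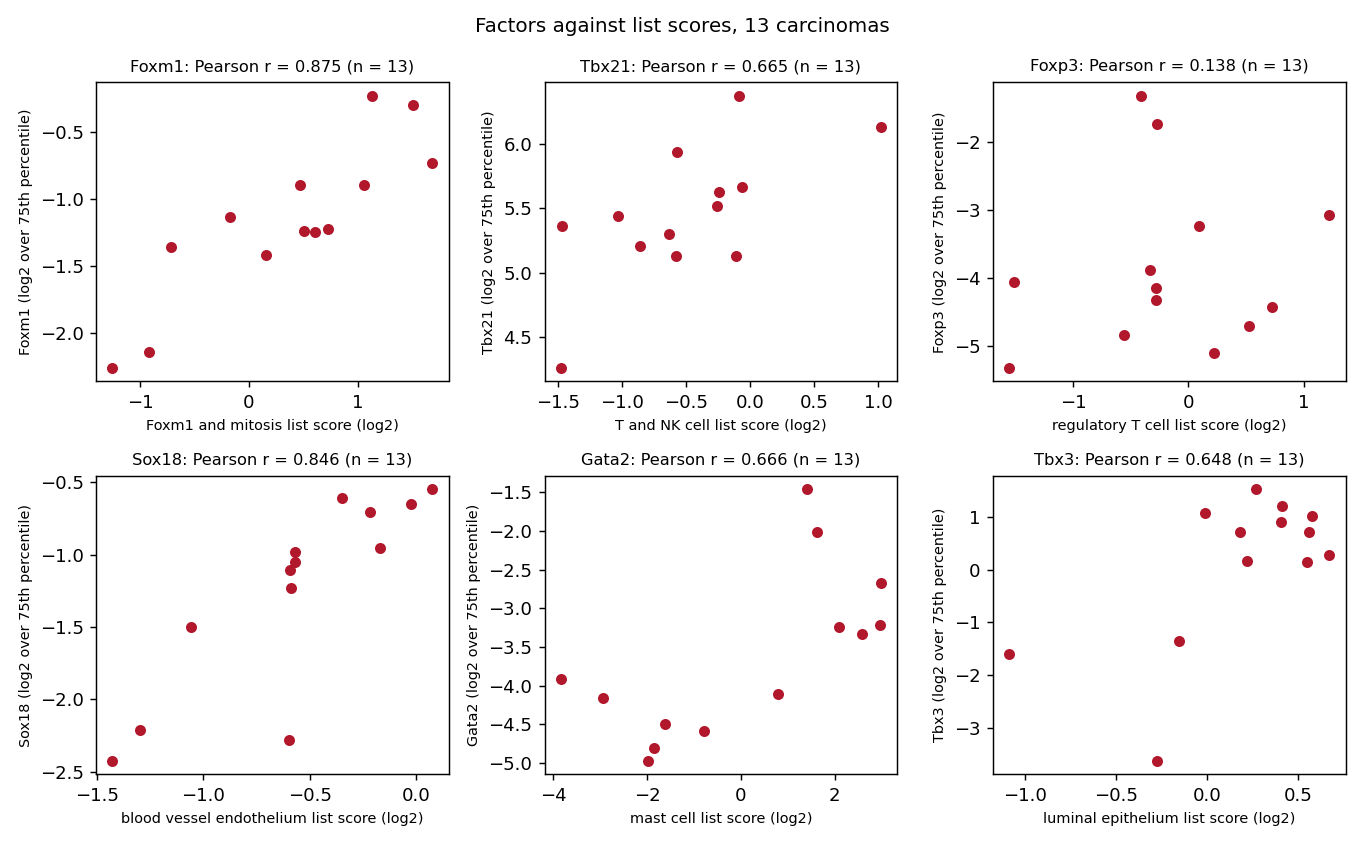
Level of 6 factors against the score of their cell type list in the 13 carcinomas, 1 point per carcinoma. The x axis averages the list's genes after each was centred over all arrays, and the y axis is the factor's log2 level; r falls from 0.875 for Foxm1 to 0.138 for Foxp3.

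Several factors varied widely among carcinomas. The SD was larger in carcinomas than in normal glands for 25 of 38 tested members (65.8%), beside 61.6% of all genes. The 6 largest SDs in carcinomas were those of Tbx1 (2.64, against 0.75 in normal glands), Foxi1 (2.33, against 0.97), Gata4 (1.92, against 1.27), Gata6 (1.80, against 0.50), Foxj1 (1.59, against 0.44) and Sox8 (1.57, against 0.62). In Foxi1, a factor of acid-secreting cells in kidney and inner ear, the low end was set by carcinoma 5 at -6.19, with the others at -2.44 to 2.69. These levels came from 1 probe with 1 spot per array. A second Foxi1 probe, well above background on 12 of 13 carcinoma and 4 of 6 normal gland arrays, differed between groups by 0.03 ± 0.43 (SE). The first differed by -0.83 ± 0.91 (SE). In Foxj1, which builds motile cilia, carcinoma 12 at -1.22 and carcinoma 13 at -3.49 stood above the other carcinomas and all normal glands, whose highest was -4.83.

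**Figure D5:**
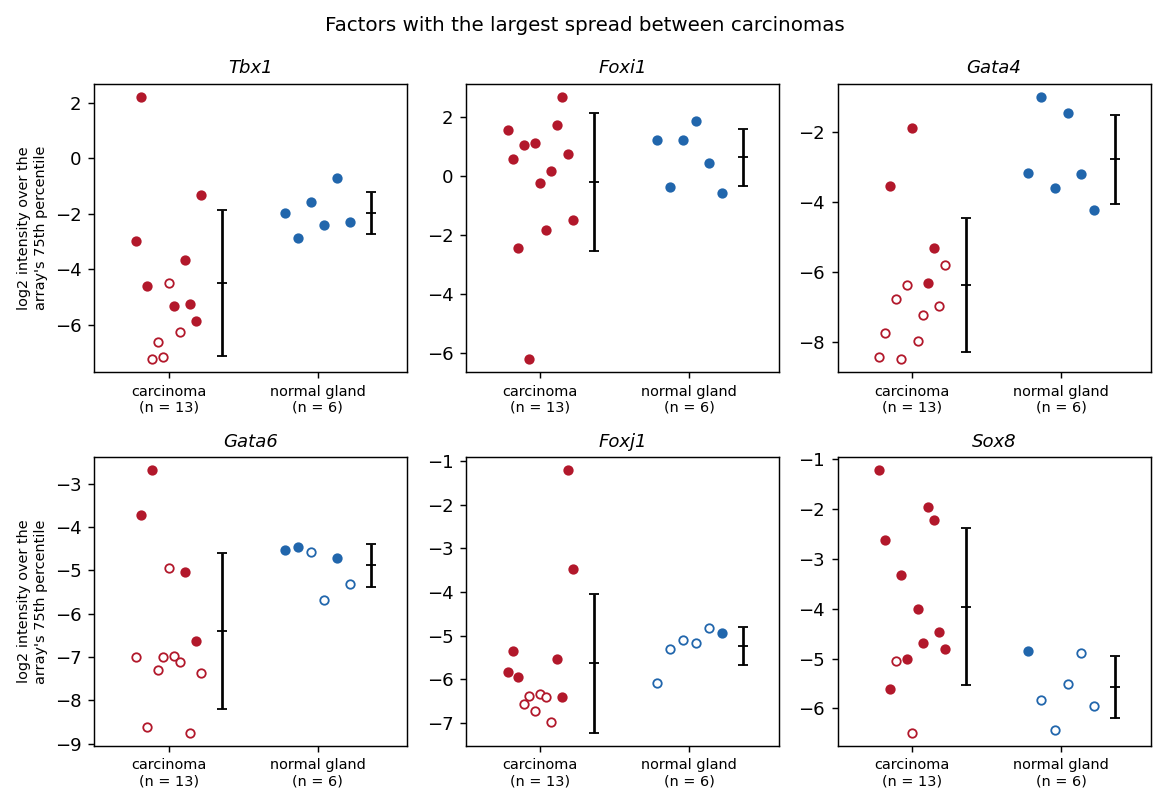
The 6 factors with the largest SD between carcinomas, as log2 intensity over the array's 75th percentile. Each point is 1 array, carcinomas left and normal glands right, open where not well above background, with mean and SD as bars. Single carcinomas stand apart, such as carcinoma 2 for Tbx1 at 2.23 and carcinoma 12 for Foxj1 at -1.22.

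Some extremes fell in the same carcinomas. Carcinomas 2 and 4 held the 2 highest carcinoma levels of Foxa2, Gata6, Sox2 and Sox6. Foxa2 was -2.18 in carcinoma 2 and -1.50 in carcinoma 4, and -8.92 to -6.70 in the other 11, where it was well above background in none. Normal glands gave -7.68 to -5.86 for Foxa2, also with no detection. Gata6 was -3.72 in carcinoma 2 and -2.69 in carcinoma 4, with the next carcinoma at -4.95. For Sox2 the same carcinomas read -2.69 and -3.90, next to -4.36, and for Sox6 they read -5.52 and -5.19, next to -5.60. Carcinomas 12 and 13 likewise held the 2 highest levels of Foxj1, Foxq1 and Tbx6. Carcinoma 4 lay on slide 2 and carcinoma 2 on slide 1, while carcinomas 12 and 13 shared slide 3 and a letter code. These pairs were noticed in the data and have no test, and how often the same pairs lead over all genes was not counted.

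Array brightness differed between the groups, and the calls did not pass once it was taken into the model. With it as a covariate in limma, 0 of the 38 tested members passed in either direction (4 higher and 2 lower at an unadjusted p under 0.05). Of all 12789 genes, 11 were then higher and 174 lower. The changes with the covariate were -1.72 for Sox18 (adjusted p = 0.0962, limma), -2.35 for Tbx18 (0.178), 1.12 for Foxm1 (0.249), -2.06 for Gata4 (0.491), -1.13 for Foxc2 (0.514), -0.56 for Tbx21 (0.586) and 0.02 for Tbx3 (0.995). In the comparison without the covariate, the sign of all 8 calls was the same within each of the 3 slides. The slides are parts of the arrays that gave the calls. On each slide every carcinoma array was brighter than every normal gland array, so the signs within slides cannot separate group from brightness.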

How the data were processed

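RNA of 13 carcinomas and 6 normal glands was measured on 1-colour (Cy3) Agilent arrays. Per the labels, RNA was purified, amplified and labelled with kits, and Agilent Feature Extraction 10.7.3.1 is named in the submitters' processing notes. The scanner files the authors deposited hold each spot's intensity after background subtraction, per the file headers. The value table the authors deposited is on the log2 scale, was read from its values as scaled to each array's 75th percentile, and served as an alternative.

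Control spots were removed, and spots flagged as outliers were treated as missing. The log2 intensity minus the array's 75th percentile was averaged over spots of a probe. Probes were named by RefSeq accession (18005 probes, 15168 symbols), and 12362 probes had no symbol. A gene was represented by its kept probe with the highest mean. Groups were compared with limma 3.58.1 in R 4.3.3 (group as the only term, variance trend, 2-sided, Benjamini-Hochberg over 12789 genes, threshold 0.05); the model was tested on simulated data. Correlations used 100000 permutations. The number of arrays limits the precision.

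A mean signal per spot was not used here, so normexp correction (offset 50) started from median signals. The labels do not say whether equal sample numbers in the groups mark pairs. Deviations of equally numbered samples correlated between -0.115 and 0.238 over 6 numbers. This cannot decide it, since a carcinoma need not share the deviation of a gland of the same rat. Alternatives covered background correction, normalization, detection filters, probe choice, slide, scan day, code series, brightness and leaving out each array. Members named with their values were those past the threshold, those detected on all arrays of 1 group and at most 0.5 of those of the other, and a list of well-known factors; from gene lists, the 2 largest changes. Other members named by a value were chosen after values were seen. For 1 member, counted above, values are not reported here. The members and lists were chosen with earlier results of these data known.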

Additional observations from a re-analysis of the deposited data

Results flagged for a closer look

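Among the 38 tested members, 1 had a normal gland that stood apart from the other 5. Sox12 was -6.57 in normal gland 4, with the nearest normal gland at -5.61, a gap of 0.649 of the range of the 6 glands, above Dixon's critical value at the 95% level. The probe was well above background on none of the normal gland arrays, and chance alone marks about 1 in 20 groups. Carcinomas number more than 10 and were not examined in this way.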

How the results depend on the processing

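Over the alternatives run, the 8 called members gave 310 values: 267 kept their direction and side of the threshold, 42 kept their direction without passing, and Foxp1 with brightness as a covariate reversed to -0.23. Members higher, 3 as reported, were 5 in the authors' value table, 5 with detection on 0.5 of each group's arrays and 6 with code series as a block. Members lower, 5 as reported, were 18 with normexp and 8 with no filter on dim probes. Genes lower, 1692 as reported, were 5256 with normexp, which moved the median change of all genes to -0.37, and Foxa3 (-0.66), Foxj3 (-0.83), Gata1 (-0.68), Sox11 (-0.72), Sox12 (-0.63) and Tbx6 (-0.54) then reversed; the cause was not tested. Within slides 1, 2 and 3, with fewer arrays, members higher were 1, 0 and 0, members lower 3, 1 and 0, genes higher 153, 45 and 0, and genes lower 534, 267 and 31. At an unadjusted p under 0.05 in limma, slide 2 had 6 members higher and slide 3 had 2 members higher, 3 lower and 370 genes higher. With brightness as a covariate, members higher and lower were 0 and 0, and genes 11 and 174. Counting a signal that was positive and significant, 42 members in place of 27 were detected on 0.5 of the normal gland arrays. Leaving out each array gave 2 to 4 members higher, 4 to 6 lower, 664 to 1440 genes higher and 1087 to 1830 lower, the lowest gene counts being without normal gland 3. With the replicate block (12 arrays), 4 members were higher and 5 lower, against 4 and 4 in these arrays without it. With the block, genes were 949 higher and 1335 lower. Of the 6 numbers, 1 correlated best with its own, and the labels do not say whether equal numbers mark pairs. Detection near background limits Gata4, Gata6, Tbx1, Tbx18 and Foxc2 in carcinomas.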

Other observations

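Carcinomas 12 and 13 had the highest Foxj1, and a list of motile cilium genes, written after these values were seen, was read beside it without a test. Of its 18 genes, 11 were tested, and 4 of them (Rsph1, Dnai1, Ccdc40 and Spag6l) were highest in carcinoma 12 among the carcinomas. Rsph1, a radial spoke protein gene, was the 1 with carcinomas 12 and 13 on top, at 0.01 and -0.11, with the other carcinomas at -2.69 to -0.37 and normal glands at -2.11 to -1.45. Most of the cilium list thus did not share the Foxj1 pattern.

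Beside Foxi1, a list of acid-secreting cell genes written in the same way had 7 of 9 genes tested. Carcinoma 5, with the lowest Foxi1, was lowest in 1 of the 7, and carcinoma 11, with the highest, was highest in 1 of the 7. The chloride channel gene Cftr of that list was 0.88 in carcinoma 12, with the other carcinomas no higher than -1.89 and normal glands at -5.86 to -3.31.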
